A study of Mus musculus with 3 samples.

Results

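Imprinted genes were followed in the gonads of male mouse embryos of 3 genotypes, collected on embryonic day 14.5. The set was a list of 42 genes known to be expressed from 1 parental allele, of which 37 had a probe on the arrays, among 16531 genes with a symbol there. They were classed as 18 genes expressed mainly from the paternal allele and 14 expressed mainly from the maternal allele. The other 5 were classed as imprinted depending on transcript or tissue (Grb10, Gnas, Ube3a, Blcap and Inpp5f). The allele used in the gonad was not measured, so genes of the paternal and maternal classes need not all be imprinted there. H19, Meg3, Magel2, Rtl1 and Klf14 had no matched probe and were not analysed here. The embryos were of a line labelled MCH: wild type (Cyp26b1+/+ and Stra8+/+), Cyp26b1 knockout (Cyp26b1-/- and Stra8+/+) and double knockout (Cyp26b1-/- and Stra8-/-), with 2 single-colour arrays each. The series calls these duplicates biological, without saying whether each was 1 embryo or several combined, so p-values measure the spread between these arrays. The alleles are labelled for the whole embryo, with no tissue-specific driver named.

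An imprinted gene is expressed mainly from the copy inherited from 1 parent, because DNA methylation laid down in the egg or the sperm lineage marks a control region that then acts over a whole cluster of neighbouring genes. Many imprinted genes govern fetal and placental growth, and paternally expressed ones often promote growth where maternally expressed ones restrain it. Germ cells are a special case: they erase the inherited marks in the early gonad, and male germ cells lay down new ones before birth with the DNA methyltransferase Dnmt3a and its cofactor Dnmt3l. Cyp26b1 is the enzyme that degrades retinoic acid in the fetal testis, and Stra8 is a retinoic acid-induced factor needed for entry into meiosis. The arrays measured total RNA of a gene and not the allele it came from, so no value below is a measure of imprinting itself. In bulk gonad RNA, fewer cells of a type and less RNA per cell cannot be told apart.

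Promoter sequence is shown for 4 genes on which the results turn: Phlda2 and Slc22a18, neighbours in a cluster that fell together, Zrsr1, which also fell, and Ndn, which rose. Each line is the 250 bases before the RefSeq start of the gene (assembly GRCm38.p6), 5′ to 3′ on the strand of the gene, with every CpG, the dinucleotide at which imprints are methylated, in capitals.
Phlda2: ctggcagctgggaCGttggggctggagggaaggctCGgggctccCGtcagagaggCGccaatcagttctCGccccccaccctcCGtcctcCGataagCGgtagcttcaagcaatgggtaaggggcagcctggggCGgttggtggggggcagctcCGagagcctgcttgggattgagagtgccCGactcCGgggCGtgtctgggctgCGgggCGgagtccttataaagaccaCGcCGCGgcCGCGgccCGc
Slc22a18: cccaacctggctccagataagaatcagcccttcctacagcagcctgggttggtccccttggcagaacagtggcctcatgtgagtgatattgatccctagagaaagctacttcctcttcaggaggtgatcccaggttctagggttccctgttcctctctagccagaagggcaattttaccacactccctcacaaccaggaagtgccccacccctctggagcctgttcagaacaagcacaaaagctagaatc
Zrsr1: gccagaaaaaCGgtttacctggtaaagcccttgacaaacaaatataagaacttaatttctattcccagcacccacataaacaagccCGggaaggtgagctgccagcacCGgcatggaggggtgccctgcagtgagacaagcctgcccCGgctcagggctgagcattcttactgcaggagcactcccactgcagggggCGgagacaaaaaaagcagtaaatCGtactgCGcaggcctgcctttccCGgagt
Ndn: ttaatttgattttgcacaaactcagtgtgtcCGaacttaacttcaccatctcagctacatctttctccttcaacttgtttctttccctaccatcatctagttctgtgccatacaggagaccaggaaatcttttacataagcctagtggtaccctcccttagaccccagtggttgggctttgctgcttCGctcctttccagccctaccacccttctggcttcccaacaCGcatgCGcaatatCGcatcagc
The windows lay at chr7:143502525-143502774 on the minus strand for Phlda2, chr7:143473539-143473788 on the plus strand for Slc22a18, chr11:22971755-22972004 on the plus strand for Zrsr1 and chr7:62348027-62348276 on the plus strand for Ndn. The Phlda2 window held 21 CpGs and the Slc22a18 window 0, so the pair that moved together differed in this respect. The Zrsr1 window held 8 and the Ndn window 5.

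Across the list, 34 of the 42 genes had a promoter entry in RefSeq, with 52 windows between them. Their median was 11.5 CpGs and 60.6% G or C, against 6 CpGs and 52.4% over all 32851 promoter windows. The hexamer TGCCGC, the core bound by the imprint-protecting factor ZFP57, was looked for on both strands. It occurred in 17.3% of the member windows, those of Calcr, Copg2, Meg3, Mest, Nap1l5, Osbpl5, Plagl1 and Zim1, against 8.68% of all windows. AGGTCA, the core site of nuclear receptors such as the retinoic acid receptors, occurred in 5.77% of member windows (Igf2, Igf2r and Meg3) and 14.0% of all windows. A direct repeat of it with 5 bases between the copies, which contains that hexamer, occurred in 0 member windows and in 0.00913% of all windows. None of the 4 promoters printed above held either hexamer. The 300-base windows of Peg3 and Usp29, on opposite strands, shared 263 bases. These matches describe letters only.

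All values below are log2 signals relative to the 75th percentile of their array (log2 signal), from the brightest probe of a gene. A level on this scale depends on the probe as well as on the RNA, so levels are compared between genotypes and never between genes. Changes are differences of log2 signal with the standard error of the limma fit, n = 2 arrays per genotype, and a gene was called where its Benjamini-Hochberg adjusted p over all 21552 features was below 0.05. The 75th percentile of the unscaled signal ran from 973.7 to 1494 over the 6 arrays, and arrays of 1 genotype differed with an SD of 0.243 to 0.293 in log2 signal. Each genotype was on a slide of its own, so slide and genotype cannot be told apart. The Cyp26b1 knockout slide was also scanned on another day than the slides of the other genotypes. All 37 genes were tested, 35 of them well above background on all 6 arrays (all but Calcr and Rasgrf1), and 0 had a saturated spot.

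The targeted genes did not settle the labels. Cyp26b1 gave 4.03 and 3.83 in wild type, 4.27 and 3.83 in arrays labelled Cyp26b1 knockout, and 4.11 and 3.91 in arrays labelled double knockout. Stra8 gave 3.73 and 2.41, 7.19 and 7.04, and 5.98 and 6.14 for these genotypes, and so was bright in the arrays labelled double knockout. Neither probe could be placed inside or outside the deleted sequence, and one outside it would check nothing. The genotype names used throughout are therefore the labelled ones.

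Against wild type, 6 of the 37 imprinted genes rose and 12 fell by their brightest probes in the arrays labelled Cyp26b1 knockout. These 18 genes were 48.6% of the list, while 51.2% of all features were called, 21.3% higher and 29.9% lower. The share of imprinted genes called was thus near that of the array as a whole. With all probes of each gene averaged, 8 rose and 9 fell. The median change was -0.09 over the list and -0.09 over all features. Among the called genes 5 changed by more than 2-fold: Gnas rose, and Phlda2, Slc22a18, Peg10 and Zrsr1 fell. The 19 uncalled genes lay between -1.20 and 0.13, 16 of them within 0.2 of zero. Of the 18 genes, 5 kept their call under each of 16 other settings of scaling, background, filter, probe, model, replicate block and omitted array: Gnas, Ndn, Phlda2, Slc22a18 and Zrsr1. The setting that ended the most calls was normexp background correction on median signals, under which only these 5 kept theirs.

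**Figure D1:**
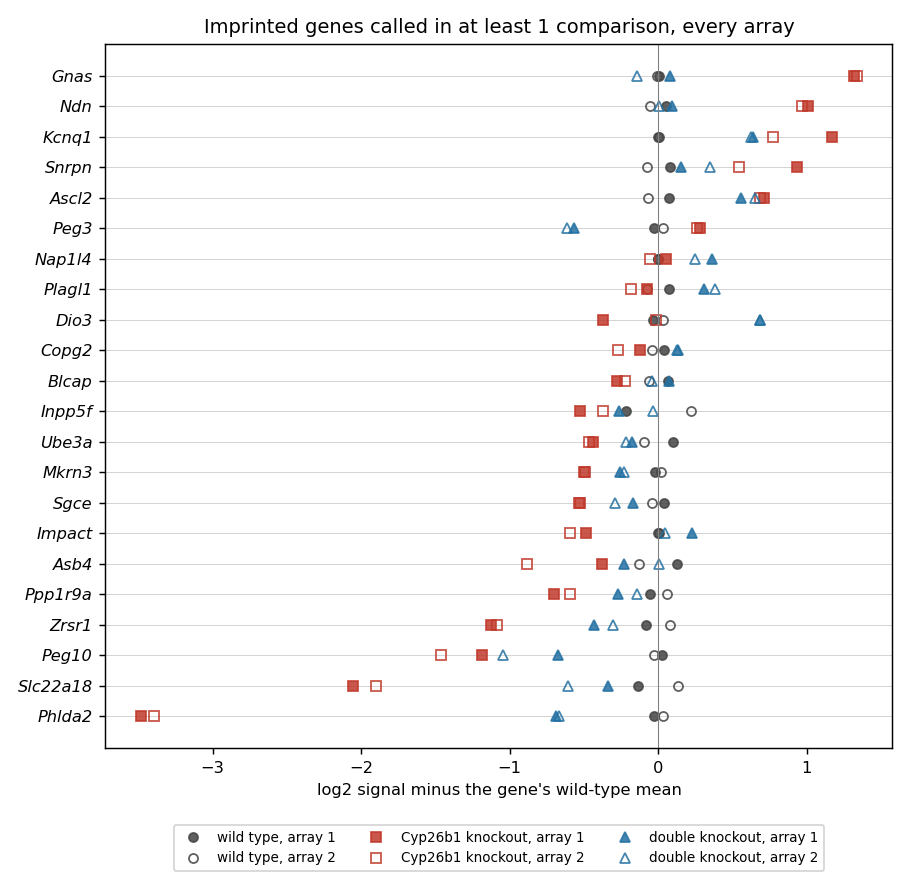
Log2 signal of each of the 22 imprinted genes called in at least 1 comparison (rows), on every array, minus the wild-type mean of that gene (x axis, log2 units). Grey circles are wild type, red squares the arrays labelled Cyp26b1 knockout and blue triangles those labelled double knockout, filled for array 1 and open for array 2. Phlda2 stands about -3.44 from wild type in the Cyp26b1 knockout and -0.68 in the double knockout, while the Gnas and Ndn rises appear in the Cyp26b1 knockout arrays.

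The Kcnq1 cluster held the largest changes of the list. Phlda2, a maternally expressed restraint on placental growth, had log2 signals of -0.19 and -0.13 in wild type, -3.64 and -3.56 in the Cyp26b1 knockout and -0.85 and -0.83 in the double knockout. All 3 genotypes were separate for this gene, with the Cyp26b1 knockout lowest. Phlda2 fell by 3.44 ± 0.11 in the Cyp26b1 knockout, or 10.8-fold (limma adjusted p = 1.99e-05), and was higher by 2.76 ± 0.11 in the double knockout than in the Cyp26b1 knockout (adjusted p = 0.000163). Its second probe gave -3.39 and 2.41 for the same differences.

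Slc22a18, a maternally expressed membrane transporter encoded beside Phlda2, had -0.63 and -0.36 in wild type, -2.55 and -2.40 in the Cyp26b1 knockout and -0.84 and -1.10 in the double knockout. The Cyp26b1 knockout arrays were the lowest, by far more than the spread within a genotype. By its brightest probe the fall was 1.98 ± 0.15 (3.94-fold, adjusted p = 0.000142), and the double knockout was higher than the Cyp26b1 knockout by 1.51 ± 0.15 (adjusted p = 0.000653). A dimmer second probe of Slc22a18 changed far less, by -0.38 and 0.00, and with both probes averaged the changes were -1.18 and 0.76.

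Other maternally expressed genes of this cluster, Kcnq1 and Ascl2, were called higher, but their direction depended on the background correction: under normexp on median signals their changes were -0.10 and -0.73 (adjusted p = 0.911 and 0.675). Kcnq1, a voltage-gated potassium channel, had -3.45 and -3.44 in wild type, -2.28 and -2.67 in the Cyp26b1 knockout and -2.81 and -2.82 in the double knockout. It rose by 0.97 ± 0.17 in the Cyp26b1 knockout (adjusted p = 0.00313). Ascl2, a transcription factor needed in the placenta, had -4.21 and -4.35, then -3.57 and -3.60, then -3.73 and -3.64, a rise of 0.70 ± 0.17 (adjusted p = 0.0126). Both knockouts stood above wild type for Kcnq1 and Ascl2, but the double knockout differences of 0.63 and 0.60 missed the threshold (adjusted p = 0.0558 and 0.0645). The Ascl2 call was lost without wild type replicate 2 (adjusted p = 0.0803). The remaining 4 listed genes of the cluster were the tetraspanin Cd81, Tssc4, the oxysterol-binding Osbpl5 and the histone chaperone Nap1l4. They were not called in the Cyp26b1 knockout, with changes from -0.08 to 0.06. Of the 8 listed genes in this cluster, 2 were thus called higher, 2 lower and 4 not called in the Cyp26b1 knockout. Of all features 21.3% were called higher and 29.9% lower there. The tally covers listed genes only, since the other imprinted genes given below were not assigned to clusters. Among those, Cdkn1c was called lower (-0.71) and Tspan32 higher (1.01) in the Cyp26b1 knockout.

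**Figure D2:**
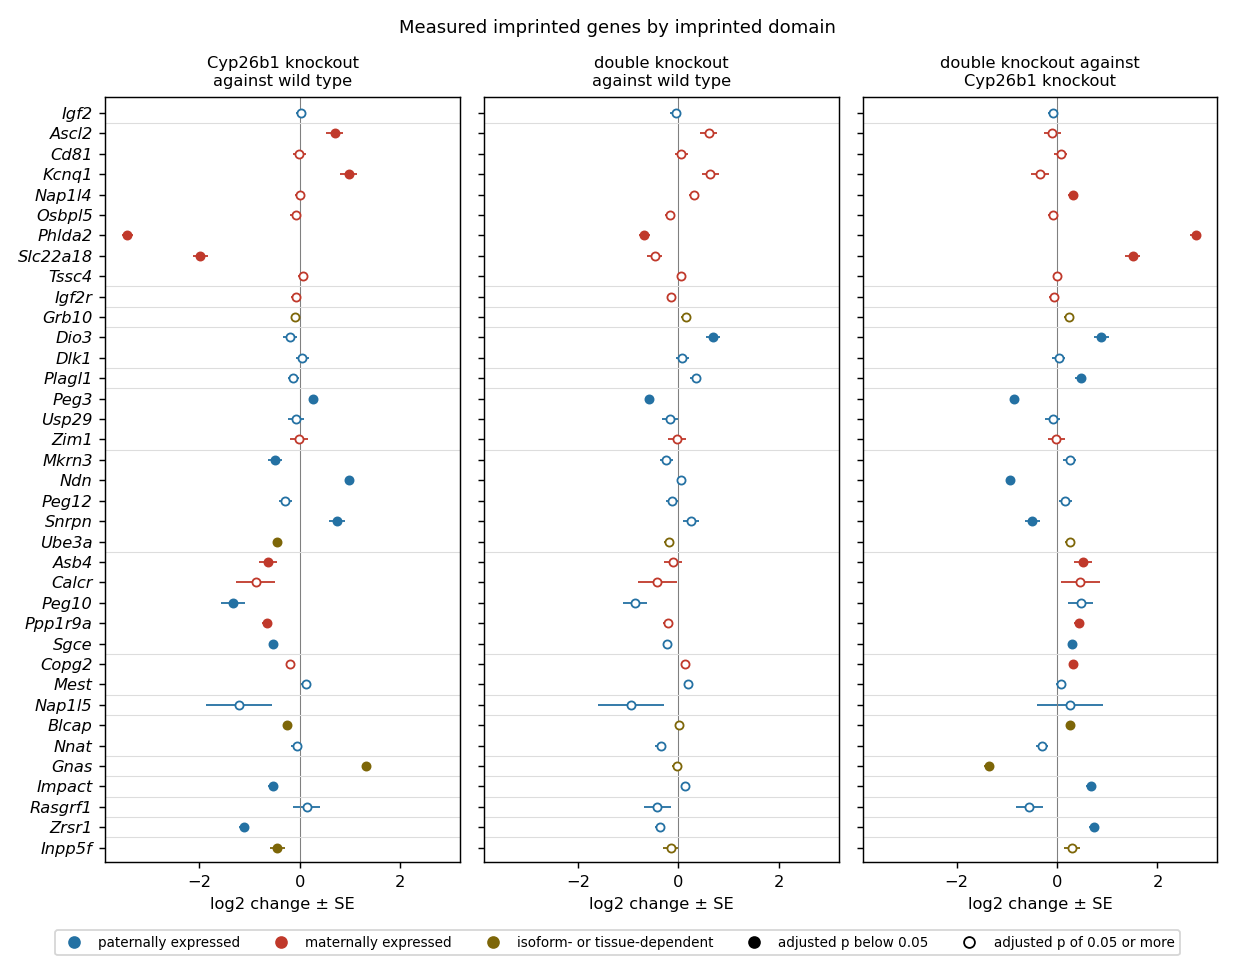
Log2 change ± SE of the 37 measured imprinted genes in the 3 comparisons, ordered by imprinted cluster with thin lines between clusters. Blue marks paternally expressed genes, red maternally expressed genes and brown genes with isoform- or tissue-dependent imprinting, and filled points have a limma adjusted p below 0.05. In the Cyp26b1 knockout the Kcnq1 cluster (Ascl2 to Tssc4) spreads from -3.44 to 0.97, while Asb4, Peg10, Ppp1r9a and Sgce are filled points below zero.

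The Snrpn cluster also split. Ndn, a paternally expressed gene of the MAGE family, had 0.80 and 0.69 in wild type, 1.75 and 1.71 in the Cyp26b1 knockout and 0.84 and 0.75 in the double knockout. The Cyp26b1 knockout arrays alone were high, by 0.99 ± 0.09 against wild type (adjusted p = 0.000228), and the double knockout differed from the Cyp26b1 knockout by -0.94 ± 0.09 (adjusted p = 0.000553). Snrpn, which encodes a spliceosome protein, had -0.77 and -0.93, 0.08 and -0.31, and -0.70 and -0.50, listed by genotype as for Ndn. It rose by 0.74 ± 0.15 in the Cyp26b1 knockout (adjusted p = 0.00579), and its second probe gave 0.70. Mkrn3, a paternally expressed makorin RING-finger gene, had -2.43 and -2.39, -2.91 and -2.91, and -2.67 and -2.64. It fell by 0.50 ± 0.13 (adjusted p = 0.0169), a call lost without wild type replicate 1 (adjusted p = 0.0771) or 2 (0.0956).

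Ube3a, a ubiquitin ligase imprinted in neurons, had 3.48 and 3.28 in wild type, 2.94 and 2.92 in the Cyp26b1 knockout and 3.21 and 3.16 in the double knockout. Its brightest probe fell by 0.45 ± 0.09 (adjusted p = 0.00502) while its other probe moved by 0.21, so no direction is drawn for the gene. Peg12, the fifth measured gene of the cluster, was not called (-0.29 ± 0.13, adjusted p = 0.105).

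Of the 5 listed genes in the Peg10-Sgce cluster, 4 were called lower in the Cyp26b1 knockout by their brightest probes. Of all features 29.9% were called lower there. This tally, too, covers listed genes only. Among the other imprinted genes, not assigned to clusters, Pon2 was called higher (0.89) and Pon3 lower (-0.94) in the Cyp26b1 knockout. The direction of Sgce was not shared by its other probe. Peg10, a paternally expressed gene derived from a retrotransposon, had -4.10 and -4.15 in wild type, -5.31 and -5.59 in the Cyp26b1 knockout and -4.80 and -5.16 in the double knockout. It fell by 1.33 ± 0.24 (2.51-fold, adjusted p = 0.00341). The size of this fall depended on the background correction: it was -0.39 under normexp without marked spots (adjusted p = 0.0319), and -1.43 with no call under normexp on median signals (adjusted p = 0.602). The double knockout also lay below wild type, by a difference of -0.86 ± 0.24 that missed the threshold (adjusted p = 0.0604). Ppp1r9a, which encodes the actin-binding protein neurabin and is maternally expressed, had 1.28 and 1.40, 0.63 and 0.74, and 1.07 and 1.19. It fell by 0.65 ± 0.09 (adjusted p = 0.00134), and its second measurable probe gave -0.55.

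Asb4, a maternally expressed gene with ankyrin repeats, had 2.69 and 2.43 in wild type, 2.18 and 1.67 in the Cyp26b1 knockout and 2.33 and 2.57 in the double knockout. Its fall of 0.63 ± 0.18 (adjusted p = 0.0202) was lost without wild type replicate 1 (adjusted p = 0.119) and without Cyp26b1 knockout replicate 2 (0.0867). Sgce, the paternally expressed epsilon-sarcoglycan, had 4.08 and 4.0, 3.51 and 3.50, and 3.87 and 3.75, a fall of 0.53 ± 0.08 (adjusted p = 0.00184). Its other probe moved by 0.32, and with both averaged the change was -0.10 (adjusted p = 0.318), so no direction is drawn for Sgce. Calcr, the calcitonin receptor, was not called at -0.88 ± 0.39 (adjusted p = 0.0961). It was well above background on 2 arrays of wild type and 1 of each knockout, and so was tested through the genotype in which it was high. The called genes of this cluster included paternally and maternally expressed ones.

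Gnas, the locus of the stimulatory G protein alpha subunit with several imprinted transcripts, had 1.84 and 1.82 in wild type, 3.15 and 3.17 in the Cyp26b1 knockout and 1.91 and 1.69 in the double knockout. The Cyp26b1 knockout arrays alone were high. The rise was 1.33 ± 0.09 (2.51-fold, adjusted p = 0.000124), and the log2 change from the Cyp26b1 knockout to the double knockout was -1.36 ± 0.09 (adjusted p = 0.000394). It differed from wild type by -0.03 ± 0.09. Its 2 other probes were well above background on only 2 of 6 arrays, so which Gnas transcript changed cannot be read from them.

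Zrsr1, a paternally expressed splicing-factor gene lying within an intron of Commd1, had 1.05 and 1.21 in wild type, 0.00 and 0.04 in the Cyp26b1 knockout and 0.69 and 0.82 in the double knockout. It fell by 1.11 ± 0.10 (2.15-fold, adjusted p = 0.000232). The double knockout lay between both other genotypes, higher than the Cyp26b1 knockout by 0.74 ± 0.10 (adjusted p = 0.00149) and below wild type by a difference that missed the threshold (-0.37 ± 0.10, adjusted p = 0.0510). Impact, a paternally expressed regulator of translation under stress, had 2.09 and 2.08, 1.60 and 1.49, and 2.31 and 2.13. It fell by 0.54 ± 0.09 (adjusted p = 0.00266) and was higher by 0.68 ± 0.09 in the double knockout than in the Cyp26b1 knockout (adjusted p = 0.00165).

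The calls of Peg3, Blcap and Inpp5f in the Cyp26b1 knockout were smaller and rested on single probes or arrays. Peg3, a paternally expressed zinc-finger gene, had 1.0 and 1.06 in wild type, 1.31 and 1.29 in the Cyp26b1 knockout and 0.46 and 0.42 in the double knockout. The brightest probe rose by 0.27 ± 0.08 (adjusted p = 0.0274), but the other probe moved by -0.90, so Peg3 has no direction in this comparison. Omitting any 1 of the 4 arrays ended this call too: the adjusted p was lowest, 0.0608, without Cyp26b1 knockout replicate 2 and highest, 0.140, without wild type replicate 1.

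Blcap, in whose intron Nnat lies, had 3.89 and 3.76, 3.55 and 3.60, and 3.90 and 3.78. Its fall of 0.25 ± 0.09 (adjusted p = 0.0469) stood against a change of 1.43 by its other probe, and omitting any 1 of the 6 arrays ended the call (lowest adjusted p 0.0663, without double knockout replicate 2; highest 0.239, without wild type replicate 1). Inpp5f, a phosphoinositide phosphatase, had 1.25 and 1.69, 0.95 and 1.10, and 1.21 and 1.43. Its fall of 0.45 ± 0.15 (adjusted p = 0.0441) was lost without wild type replicate 2 (adjusted p = 0.251) and without Cyp26b1 knockout replicate 1 (0.176) or 2 (0.0775).

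Probes of the same gene were compared for the listed imprinted genes only, wherever another probe was well above background on all 6 arrays. Genes of the other lists below are given by their brightest probe, and their other probes were not compared. Of the 18 genes called in the Cyp26b1 knockout, 5 had other probes that moved the same way (Snrpn, Phlda2, Slc22a18, Ppp1r9a and Asb4), 4 had one that moved the opposite way (Peg3, Sgce, Blcap and Ube3a), 7 had only 1 probe and 2 (Gnas and Inpp5f) had no other measurable probe. Uncalled genes could also hide a difference between probes: the brightest Nap1l4 probe moved by 0.00 while its 2 others moved by 0.76 and 1.39. Which transcript each probe reads was not tested.

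**Figure D3:**
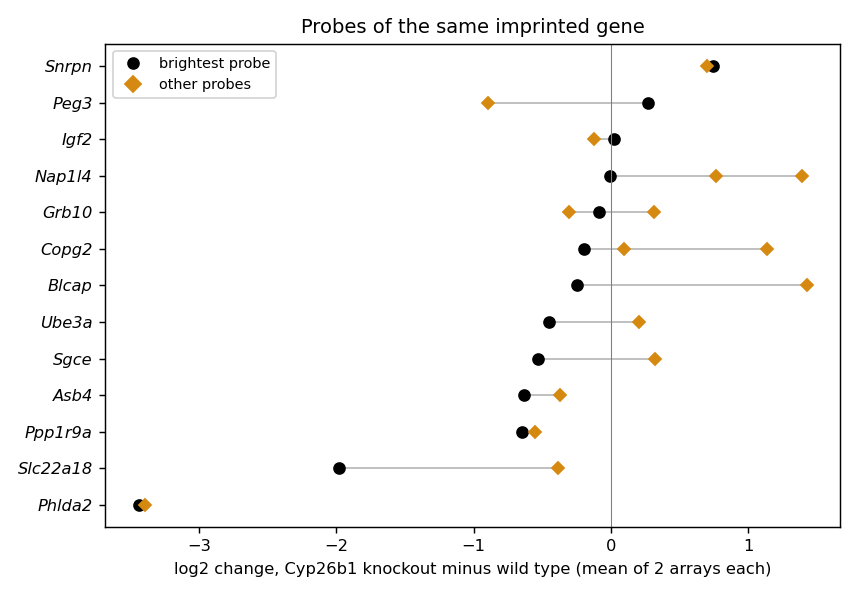
Log2 change in the Cyp26b1 knockout against wild type (x axis) for every imprinted gene with more than 1 probe well above background on all 6 arrays (rows). Black circles are the brightest probe and orange diamonds the other probes, joined by a grey line. The 2 Phlda2 probes coincide near -3.4, while those of Peg3, Blcap, Ube3a and Sgce lie on opposite sides of zero.

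By parental class, the arrays labelled Cyp26b1 knockout had 3 of 18 paternally expressed genes higher and 5 lower than wild type, and 2 of 14 maternally expressed genes higher and 4 lower. The shares called, 44.4% and 42.9%, were both a little under the 51.2% of all features. The medians were -0.10 for the paternal and -0.08 for the maternal class. Among the 5 genes with isoform- or tissue-dependent imprinting, 1 rose and 3 fell. The counts of these classes rest on brightest probes and include Peg3, Sgce, Blcap and Ube3a, whose other probe moved the opposite way. The classes differed mainly in their extremes: the lowest paternally expressed gene was Peg10 at -1.33 (-0.39 under normexp without marked spots), the lowest maternally expressed gene Phlda2 at -3.44. On the scale of the authors' value table the medians were 0.0036 and 0.02, so the direction of neither median was settled.

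**Figure D4:**
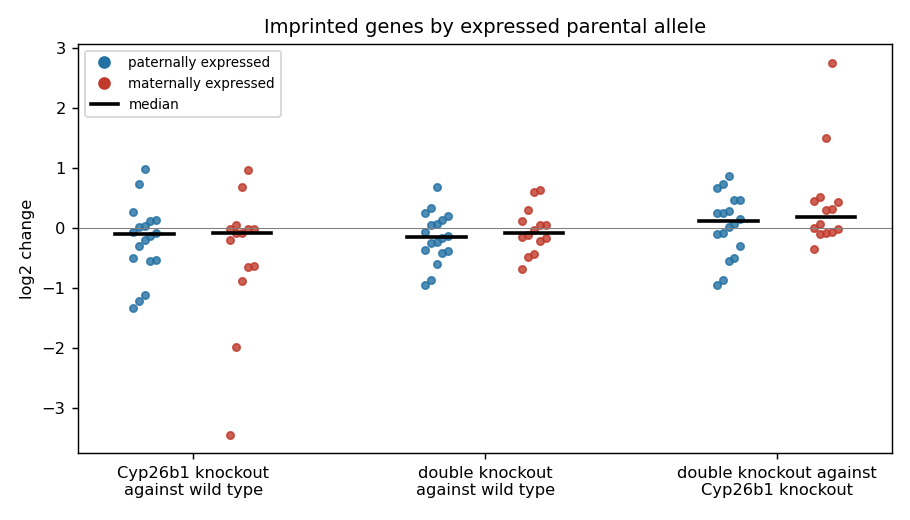
Log2 change of each of the 18 paternally expressed (blue) and 14 maternally expressed (red) genes in the 3 comparisons, with horizontal spread added only to separate the points and a black bar at the median of each class. The medians of both classes lie within 0.2 of zero in each comparison, and the widest outliers, Phlda2 and Slc22a18, are maternally expressed.

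Between the double knockout and wild type, 3 of the 37 imprinted genes were called: Dio3 rose, and Phlda2 and Peg3 fell. That is 8.11% of the list against 12% of all features, 5.43% higher and 6.56% lower. The medians were -0.11 over the list and -0.02 over all features, and 0 members changed by more than 2-fold. Dio3, the paternally expressed deiodinase that inactivates thyroid hormone, had -1.91 and -1.84 in wild type, -2.25 and -1.89 in the Cyp26b1 knockout and -1.19 and -1.19 in the double knockout. The double knockout arrays alone were high, by 0.69 ± 0.15 against wild type (adjusted p = 0.0267). Phlda2 fell by 0.68 ± 0.11 (adjusted p = 0.0108), with -0.98 for its second probe. Peg3 fell by 0.59 ± 0.08 (adjusted p = 0.00614), with -0.52 for its second probe.

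These 3 calls were sensitive to single arrays, and normexp on median signals ended all 3 (adjusted p = 0.900 for Dio3, 0.574 for Phlda2 and 0.169 for Peg3). Dio3 lost its call without wild type replicate 1 (adjusted p = 0.133) or 2 (0.124) and without double knockout replicate 1 (0.0814) or 2 (0.0871). Phlda2 lost it without wild type replicate 1 (0.0729) or 2 (0.102), and Peg3 without wild type replicate 2 (0.0573). The number of features called fell with them, from 2583 to 796 without wild type replicate 1, 689 without wild type replicate 2, and 1493 without double knockout replicate 2. All arrays of these 2 genotypes were scanned on 1 day. Paternally expressed genes gave 1 higher and 1 lower of 18 (median -0.14), maternally expressed genes 0 higher and 1 lower of 14 (median -0.07), and the 5 other genes gave 0 calls with 0 at an unadjusted limma p below 0.05.

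The third comparison, double knockout against Cyp26b1 knockout, shares its arrays with the comparisons above and is not independent of them. In it the double knockout had 12 imprinted genes above and 4 below the Cyp26b1 knockout, 43.2% of the list against 43.1% of all features (25.5% higher, 17.6% lower). The median was 0.24 over the list and 0.09 over all features. Paternally expressed genes gave 5 higher and 3 lower of 18 (44.4%, median 0.12). Maternally expressed genes gave 6 higher and 0 lower of 14 by their brightest probes (42.9%, median 0.19), and the 5 other genes gave 1 and 1. Nap1l4, Ppp1r9a, Asb4 and Copg2 were among the maternally expressed genes called higher, but no direction is drawn for them below, because of their other probes. With all probes of each gene averaged, the list gave 6 higher and 5 lower. The split of 12 and 4 depended on how the arrays were scaled: it was 7 higher and 6 lower after quantile normalization, 15 and 3 after centring on medians, and 5 and 11 on the scale of the authors' value table. Calls over all features shifted likewise, with 59.2% higher in the main scaling, 70.7% after centring on medians and 22.8% on the table's scale. The same 2 scalings gave 71.0% and 13.5% of calls higher for double knockout against wild type, where the main scaling gave 45.3%, with 5 and 1 imprinted genes higher and 2 and 12 lower. For Cyp26b1 knockout against wild type the main scaling gave 41.7% and the table's scale 51.7%, with 6 imprinted genes higher and 10 lower.

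Changes of 6 genes passed the test in this comparison under each of 16 other settings. Phlda2, Slc22a18, Zrsr1 and Impact were higher in the double knockout, and Gnas and Ndn were lower. For Slc22a18 the difference rests on its brightest probe, since its dimmer second probe moved by only 0.004. The values of these 6 genes in all 3 genotypes stand above, and Phlda2 still lay below wild type in the double knockout. Dio3 was higher by 0.88 ± 0.15 (adjusted p = 0.00330). Plagl1, a paternally expressed zinc-finger regulator of growth, had -0.66 and -0.81 in wild type, -0.81 and -0.91 in the Cyp26b1 knockout and -0.42 and -0.35 in the double knockout. It was higher in the double knockout than in the Cyp26b1 knockout by 0.47 ± 0.11 (adjusted p = 0.0107), a call lost without double knockout replicate 2 (0.0543).

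The other calls were small. Ppp1r9a (0.44 ± 0.09), Asb4 (0.52 ± 0.18), Copg2 (0.33 ± 0.09), Nap1l4 (0.31 ± 0.09), Sgce (0.30 ± 0.08) and Blcap (0.27 ± 0.09) were higher in the double knockout by their brightest probes. Each of these 6 lost its call without at least 1 array, with highest adjusted p of 0.0517 for Ppp1r9a without double knockout replicate 2, 0.208 for Asb4 without Cyp26b1 knockout replicate 2, and, without double knockout replicate 1, 0.0731 for Copg2, 0.182 for Nap1l4, 0.141 for Sgce and 0.208 for Blcap. Copg2, a coat protein gene beside Mest, had 2.70 and 2.62 in wild type, 2.53 and 2.39 in the Cyp26b1 knockout and 2.79 and 2.79 in the double knockout. Nap1l4 had 5.72 and 5.72, 5.77 and 5.66, and 6.08 and 5.97. Other probes of Nap1l4 (-1.03 and -1.05), Sgce (-0.52) and Blcap (-1.53) moved the opposite way, those of Copg2 went both ways (0.060 and -1.06), and that of Asb4 stood at -0.01. The other measurable Ppp1r9a probe moved by only 0.03, and averaging all its probes turned its direction. No direction is therefore drawn for Nap1l4, Sgce, Blcap, Copg2, Ppp1r9a and Asb4. Snrpn was lower in the double knockout (-0.49 ± 0.15, adjusted p = 0.0359), a call lost on omitting any 1 array other than Cyp26b1 knockout replicate 2, with the highest adjusted p (0.162) without Cyp26b1 knockout replicate 1. Peg3 was lower by its brightest probe (-0.86 ± 0.08, adjusted p = 0.000578), while its other probe moved by 0.38.

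There were 15 imprinted genes called in no comparison, among them the growth factor Igf2 and the Delta-like gene Dlk1. Dio3, the other measured gene of the Dlk1-Meg3 cluster, was called higher in the double knockout against each other genotype, as given above. Igf2 had 5.65 and 5.49 in wild type, 5.66 and 5.52 in the Cyp26b1 knockout and 5.44 and 5.58 in the double knockout, so the genotypes overlapped. Its change was 0.02 ± 0.10 in the Cyp26b1 knockout and -0.06 ± 0.10 in the double knockout (adjusted p = 0.868 and 0.755). Dlk1 had 3.60 and 3.37, 3.51 and 3.55, and 3.73 and 3.40, with changes of 0.05 ± 0.13 and 0.08 ± 0.13 (adjusted p = 0.774 and 0.720). Their maternally expressed partners H19 and Meg3 were not measured here. Igf2r, the maternally expressed receptor that clears IGF2, changed by -0.08 ± 0.09 and -0.14 ± 0.09, and the adaptor Grb10 by -0.09 ± 0.09 and 0.15 ± 0.09. Mest, a paternally expressed hydrolase-like gene, changed by 0.12 ± 0.09 and 0.20 ± 0.09.

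Among the rest, Nnat (neuronatin) lay at -0.06 ± 0.11 in the Cyp26b1 knockout and -0.36 ± 0.11 in the double knockout (adjusted p = 0.685 and 0.0847). Usp29 and Zim1, neighbours of Peg3, lay between -0.16 and -0.02 in both knockouts. Nap1l5 had -2.83 on wild type array 1 and between -5.28 and -4.97 on the other 5 arrays, so its differences of -1.20 ± 0.66 and -0.95 ± 0.66 rest on that array and were not called. Rasgrf1 was not well above background in the double knockout (means of -5.23, -5.10 and -5.65 by genotype). Its double knockout signal differed by -0.42 ± 0.27 from wild type and by -0.55 ± 0.27 from the Cyp26b1 knockout. Neither difference was called (limma adjusted p = 0.348 and 0.140), so no fall is drawn. A p that misses the threshold does not show that these genes were unchanged.

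The 33 other genes listed as imprinted in the mouse gave 17 that could be tested. In the Cyp26b1 knockout 5 rose and 8 fell, 76.5% of the tested genes against 51.2% of all features. Slc22a2 and Th among the 8 were tested only through wild type, where they were above background; without them 5 of 15 rose and 6 fell (73.3%). In the double knockout 2 rose and 2 fell against wild type, 23.5% against 12% of all features, or 2 and 1 of 15 without Slc22a2 and Th. H13, a signal peptide peptidase whose transcripts are imprinted, had 1.17 and 1.23 in wild type, -0.09 and 0.03 in the Cyp26b1 knockout and 1.03 and 0.83 in the double knockout, a fall of 1.23 ± 0.10 (adjusted p = 0.000199). Sfmbt2, a paternally expressed Polycomb-group gene, had -0.48 and -0.48, -1.95 and -1.79, and -0.89 and -0.58, a fall of 1.40 ± 0.13 (adjusted p = 0.000286). Gab1, a signalling adaptor, had -1.11 and -1.12, -0.07 and 0.09, and -0.94 and -1.01, a rise of 1.12 ± 0.11 (adjusted p = 0.000273). For all 3 the Cyp26b1 knockout arrays stood apart from the other 4. Slc22a2, an organic cation transporter, was well above background only in wild type and was at least 3.01-fold lower in the Cyp26b1 knockout and at least 1.89-fold lower in the double knockout (means of -4.72, -8.47 and -7.77, adjusted p = 0.000285 and 0.00352). It could have entered the test only by being high in some genotype, so its difference is given as a description.

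Genes that set, protect or erase imprints were measured beside them. In the Cyp26b1 knockout 7 of 17 rose and 4 fell, 64.7% against 51.2% of all features. In the double knockout 2 rose and 2 fell against wild type, 23.5% against 12%. Dnmt3l, the cofactor needed for male imprints, had 3.55 and 3.69 in wild type, -3.88 and -2.94 in the Cyp26b1 knockout and -1.10 and -2.16 in the double knockout. It fell by 7.03 ± 0.38 in the Cyp26b1 knockout and fell by 5.25 ± 0.38 in the double knockout (adjusted p = 7.51e-05 and 0.000687). The maintenance methyltransferase Dnmt1 rose by 0.99 ± 0.08 in the Cyp26b1 knockout (adjusted p = 0.000211) and the histone methyltransferase Setdb1 by 1.42 ± 0.11 (adjusted p = 0.000173). Kdm1b, a histone demethylase needed for maternal imprints in the oocyte, fell by 1.17 ± 0.10 (adjusted p = 0.000233). For these 3 the double knockout differed from wild type by 0.14, 0.10 and -0.18, none of them called. Besides Dnmt3l, the calls in the double knockout against wild type were Dnmt3a, Hells and Dnmt3b. They changed by -1.05 ± 0.24, 1.04 ± 0.09 and 0.49 ± 0.11 (limma adjusted p = 0.0348, 0.0011 and 0.0295). In the Cyp26b1 knockout Dnmt3a changed by -1.64 ± 0.24 and Hells by 0.95 ± 0.09 (adjusted p = 0.0014 and 0.000248), and Dnmt3b was not called.

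Of the insulin-like growth factor axis, in which Igf2, Igf2r and Grb10 act, 6 of 16 tested genes rose and 4 fell in the Cyp26b1 knockout, 62.5% against 51.2% of all features. In the double knockout 1 rose and 0 fell against wild type (6.25% against 12%), with 2 of either direction at an unadjusted limma p below 0.05. The binding protein genes Igfbp4, Igfbp6 and Igfbp3 rose by 1.19 ± 0.09, 0.86 ± 0.10 and 0.49 ± 0.09 (adjusted p = 0.000137, 0.000596 and 0.00396). Igf1r, the receptor through which IGF2 signals, had 1.63 and 1.48 in wild type, 0.32 and 0.55 in the Cyp26b1 knockout and 1.23 and 1.43 in the double knockout, a fall of 1.12 ± 0.12 (adjusted p = 0.000397). Igfbp6 also rose in the double knockout, by 1.02 ± 0.10 (adjusted p = 0.00222).

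Markers of the gonad's cell types moved as well, and their part in the changes of imprinted genes was not tested. Summed signals are given in multiples of each array's 75th percentile, as the range over the 2 arrays of a genotype, for wild type first, then Cyp26b1 knockout, then double knockout. Germ cell markers ran from 112 to 116, 65.7 to 79.9 and 91.0 to 102, with 2 of 10 higher and 5 lower in the Cyp26b1 knockout. Of the germ cell markers with the smallest adjusted p, Dnd1, Tdrd1 and Mael fell there by 2.01, 2.01 and 1.07, and Kit rose by 1.07. Fetal Leydig cell markers ran from 172 to 195, 98.9 to 125 and 142 to 163, with 0 of 7 higher and 5 lower, Fdx1 by 0.99 and Star by 1.57. Sertoli cell markers ran from 143 to 162, 180 to 185 and 160 to 188, with 4 of 10 higher and 2 lower. The shares called in the Cyp26b1 knockout were 70%, 71.4% and 60% for these 3 lists in turn. Of all features 51.2% were called there, 21.3% higher and 29.9% lower. In the double knockout against wild type the shares were 40%, 28.6% and 40%, against 12% of all features. The gonadal cell types were present by their defining markers on all arrays, Ddx4 and Dazl for germ cells, Sox9 and Amh for Sertoli cells and Cyp11a1 for Leydig cells, each well above background.

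Interstitial markers ran from 189 to 206, 136 to 169 and 204 to 209, with 2 of 9 higher and 4 lower in the Cyp26b1 knockout. Endothelial markers ran from 15.4 to 16.3, 15.4 to 16.2 and 18.0 to 19.4, with 4 of 8 higher and 2 lower. Blood and macrophage markers ran from 6.95 to 8.0, 4.35 to 6.41 and 5.29 to 5.88, with 2 of 7 higher and 1 lower. Mesonephros and duct markers ran from 12.3 to 13.7, 7.01 to 9.55 and 8.01 to 8.46, with 1 of 8 higher and 3 lower. The higher gene, Pax2, was tested only through the Cyp26b1 knockout, where it was above background; without it 0 of 7 rose and 3 fell. The shares called in the Cyp26b1 knockout were 66.7%, 75%, 42.9% and 50% for these 4 lists in turn, against 51.2% of all features. In the double knockout against wild type they were 11.1%, 25%, 0% and 25%, against 12% of all features. The lowest array was one of the Cyp26b1 knockout for each of the 7 marker sums except that of the Sertoli cell markers. For endothelial markers the margin was small, 15.37 against 15.43 on a wild type array. A sum weighs its brightest genes most. In the blood and macrophage list Alas2 fell by 0.71, while the macrophage genes Csf1r and C1qa rose by 0.66 and 0.67.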

How the data were processed

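The authors deposited 1 scanner file per array with spot intensity values, which Feature Extraction had background-subtracted (Agilent's software, version 9.5 per the submitters' processing notes and 9.5.3.1 per the file headers). A deposited value table with 1 column per genotype held ratio values. Its log2 columns differed from log2 scanner means by shifts of 0.10, -0.20 and -0.30 for the 3 comparisons, and its centring stayed unknown.

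Log2 processed signals were scaled to the 75th percentile of each array, without control and outlier spots. Of 41174 probes, 23374 matched 1 gene symbol through RefSeq accessions of GRCm38.p6 and 17800 matched none. Each gene was represented by its brightest probe, and 21552 features well above background on both arrays of a genotype were tested with limma 3.58.1 (R 4.3.3; lmFit, eBayes with trend, all 6 arrays, 3 residual degrees of freedom), two-sided, Benjamini-Hochberg. With 2 arrays a genotype, an exact permutation test cannot reach 0.05, and the number of arrays limits precision. Normexp used median signals, since the files held no mean signals. The fit was tested on simulated data. Promoters are RefSeq's. The imprinted genes and lists were chosen with earlier results of these data known. Every called member is named with every array. From the other imprinted genes, the genes that set, protect or erase imprints and the insulin-like growth factor axis, the 4 genes with the smallest adjusted p are named. The cell type marker lists are given mainly as sums and counts. For the genes that set, protect or erase imprints, the remaining calls in double knockout against wild type are named too. Alternatives changed scaling, background, filter, probe, model, block and arrays.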

Additional observations from a re-analysis of the deposited data

How the results depend on the processing

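Of the genes called, 5 of 18 in Cyp26b1 knockout against wild type (Gnas, Ndn, Phlda2, Slc22a18, Zrsr1), 0 of 3 in double knockout against wild type and 6 of 16 in double knockout against Cyp26b1 knockout (the same 5 and Impact) kept their call and direction under each of 16 other settings. Leaving out single arrays ended no call for 12, 0 and 8 genes in turn. The scaling taken from the authors' value table shifts all genes together. That scaling, normexp without marked spots and the fit of only the 2 genotypes compared were chosen after seeing the data. The cause of the differences was not tested. The slide as a random block was not run, because each genotype lay on its own slide. Signal over background limited Calcr and Rasgrf1.

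Under normexp on median signals, Cyp26b1 knockout against wild type gave 2 imprinted genes higher and 3 lower, 3603 features called, and medians of -0.24 (paternally expressed) and -0.27 (maternally expressed). Double knockout against wild type gave 0 and 0, 517 features (all with limma) and a paternal median of -0.052. Double knockout against Cyp26b1 knockout gave 4 higher, 2618 features and medians of 0.19 and 0.29. Kcnq1 and Ascl2 turned to -0.10 and -0.73 in the Cyp26b1 knockout, and Copg2 to -0.053 in the third comparison.

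On the scale of the value table, Cyp26b1 knockout against wild type had medians of 0.0036 and 0.023. Double knockout against wild type had 12 imprinted genes lower, 4992 features called and medians of -0.34 and -0.27. Double knockout against Cyp26b1 knockout had 5 higher, 11 lower and medians of -0.18 and -0.11, with Sgce at -0.0063 and Blcap at -0.038. Quantile normalization gave a maternal median of 0.018 in the first comparison, 3 higher in the second, and 7 higher with a paternal median of 0.050 in the third. Median centring gave 5 higher with medians of -0.011 and 0.063 in the second, and medians of 0.23 and 0.30 in the third. Normexp without marked spots gave 2 higher and a paternal median of -0.079 in the second, and a maternal median of -6e-04 in the third.

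Without a filter on dim probes, double knockout against wild type had 0 imprinted genes higher and 1565 features called, and the third comparison 14257 features called. With probes well above background on all 6 arrays, the second had 4 lower and the third a maternal median of 0.070. Without the trend, 2 were higher in the second and 7 in the third. The fit of only the 2 genotypes compared gave 2 higher in the second. Averaging all probes gave 6 higher in the third, with medians of 0.053 and -0.036. It turned Peg3 (-0.31), Blcap (0.59) and Inpp5f (0.054) in the Cyp26b1 knockout, and Nap1l4 (-0.59), Sgce (-0.11), Ppp1r9a (-0.073), Blcap (-0.63) and Copg2 (-0.23) in the third comparison.

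Array numbers were not taken to pair the samples, since no label ties them to a shared source and there were only 2 numbers: differences of same-numbered arrays correlated at 0.101 to 0.222. With the array number as a replicate block, double knockout against wild type gave 3 imprinted genes higher and 4 lower (adding Peg10, Kcnq1, Nap1l4 and Zrsr1), and the other comparisons 6 and 13, and 14 and 4.

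Leaving out each array in turn, Cyp26b1 knockout against wild type gave 4 to 6 imprinted genes higher and 9 to 12 lower, with paternal medians of -0.18 to -0.030. Double knockout against wild type gave 0 to 2 higher, 1 to 2 lower, 689 to 2723 features called and paternal medians of -0.22 to -0.0033. Double knockout against Cyp26b1 knockout gave 6 to 10 higher, with paternal medians of 0.060 to 0.22 and maternal medians of 0.014 to 0.27.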
